A study of Mus musculus with 48 samples.

Results

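The 8 genes described here, Cd74, H2-Aa, H2-Ab1, H2-Eb1, H2-DMa, H2-DMb1, H2-DMb2 and Ciita, belong to the major histocompatibility complex (MHC) class II pathway of antigen presentation. They were found on the arrays by gene name, which gave 9 probes of the 55681 probes besides controls, since H2-Ab1 carried 2 probes and each other gene carried 1. The genes were chosen by measured values of these arrays, namely the P10 rises with IL1B of Cd74 in O4+ cells and of H2-Ab1 in CD11B+ cells, and then completed by name. For this reason no p is given for the comparisons of IL1B with PBS at P10, and the counts by the call rule in them are a description that the choice of genes partly fixed. The PBS arrays at P10 also enter the comparisons of age and of fractions, where no p is given for Cd74 in O4+ cells or for H2-Ab1 in CD11B+ cells.

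Gene expression was measured in 48 samples, 6 in each of 8 groups, from male swiss mice (given as OF1 in the study's methods) that carried no named genetic change. Pups received intraperitoneal injections of PBS or of interleukin 1B (IL1B, 10 ng/g) from P1 to P5, and brains were collected at P5, 2 h after the last injection according to the sample labels, or at P10, 5 days later. The study's methods give a longer interval after the last injection, and the description field of the P10 samples names another age and injection period than their titles and stage, which were followed here. O4+ cells, which are premyelinating cells of the oligodendrocyte lineage, and then CD11B+ cells, labelled as microglia, were isolated in sequence with magnetic beads from pooled brains. The 4 groups of each cell fraction were therefore PBS at P5, IL1B at P5, PBS at P10 and IL1B at P10. Each sample was hybridised to 1 single-colour array. Magnetic isolation enriches a cell type without removing all others.

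MHC class II molecules are pairs of an alpha and a beta chain that present peptides from endosomes to CD4+ T cells. In the mouse, H2-Aa and H2-Ab1 encode the chains of the I-A molecule and H2-Eb1 encodes the beta chain of I-E. Cd74 encodes the invariant chain, which holds the binding groove until the molecule reaches the endosome, and H2-DM, made of an alpha chain (H2-DMa) and a beta chain (H2-DMb1 or H2-DMb2), then exchanges the remaining invariant chain fragment for peptide. Ciita encodes the transactivator that class II promoters require, and interferon gamma is its classical inducer. Dendritic cells, B cells and macrophages use this pathway constantly, whereas resting microglia express little of it and raise it in inflammation.

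Class II promoters are recognised through an X box, an X2 box and a Y box upstream of the start, at which the RFX, CREB and NF-Y factors bind before Ciita is recruited. RefSeq promoters were at hand for 5 of the 8 genes, namely H2-Aa, H2-Eb1, H2-DMb1, H2-DMb2 and H2-DMa with 2 starts. The 250 bases before each start were searched on both strands for the Y box core TGATTGG, the X box core AACNGATG and the X2 box written as a palindrome, TGACGTCA. The letters were chosen after these promoters had been read, so their presence is a description of the sequences. A Y core with either X motif was found in 4 of the 6 promoters, whereas 0.271% of all 32851 mouse promoters of the same length held such a pair (7.23% held the Y core, 1.98% the X core and 1.55% the X2 palindrome). The stretches that hold the pairs are shown because these genes share them, with the motifs in capitals, 5′ to 3′ on the strand of the gene, in GRCm38.p6.
H2-Aa, chr17:34287855-34287909, minus strand: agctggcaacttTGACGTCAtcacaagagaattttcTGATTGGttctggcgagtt
H2-Eb1, chr17:34305766-34305824, plus strand: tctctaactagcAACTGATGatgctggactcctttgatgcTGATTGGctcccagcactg
H2-DMb1, chr17:34153087-34153146, plus strand: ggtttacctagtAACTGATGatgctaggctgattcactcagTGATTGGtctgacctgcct
H2-DMb2, chr17:34145116-34145175, plus strand: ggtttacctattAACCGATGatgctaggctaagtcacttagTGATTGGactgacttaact

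The motifs lay 16 bases apart in H2-Aa, 20 in H2-Eb1 and 21 in both H2-DMb1 and H2-DMb2. The Y core began 50 bases before the start in H2-Aa, 61 in H2-Eb1, 63 in H2-DMb1 and 92 in H2-DMb2. These exact letters were not in the window before either start of H2-DMa. Both beta chain genes of H2-DM are shown because they carried the same pair of motifs at the same spacing, while only H2-DMb1 was above background on all arrays.

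**Figure D1:**
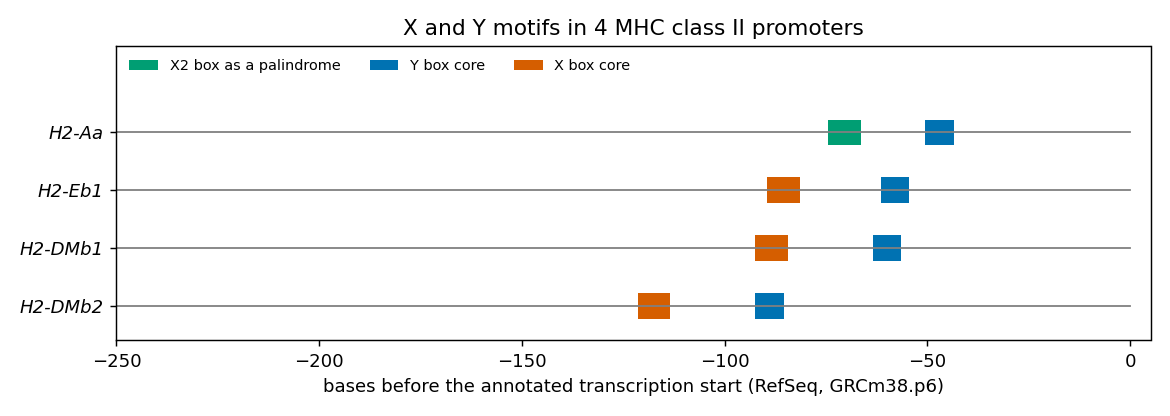
Positions of the motifs in the 4 promoters that hold a Y box core with an X motif. The x axis gives bases before the annotated start of transcription and each row is 1 gene; boxes mark the X box core, the X2 palindrome and the Y box core. In each of the 4 promoters the Y core lies nearer to the start than the X motif, 16 to 21 bases from it.

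The probes limit what the arrays can show for some members. All class II chains and H2-DM genes lie on chromosome 17, and Ciita on chromosome 16. The probes of H2-Aa (mm9 chr17:34421285-34421344, minus strand) and H2-DMb2 (mm9 chr17:34284764-34284823, plus strand) each match 1 unbroken stretch, and the 60 bases of the H2-DMa probe are spread over 564 bases of the genome (mm9 chr17:34274300-34274863, plus strand). They are printed so that the values below can be traced to the stretch each probe reads.
H2-Aa probe: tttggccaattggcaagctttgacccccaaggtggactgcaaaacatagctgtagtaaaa
H2-DMa probe: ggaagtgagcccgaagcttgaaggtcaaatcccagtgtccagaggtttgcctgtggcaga
H2-DMb2 probe: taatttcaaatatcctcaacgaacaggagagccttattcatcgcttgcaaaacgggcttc

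The 2 H2-Ab1 probes overlap by 51 bases with 1 difference between them, T12C, counted from 1 at the 5′ end of the 21-base windows below and set in capitals. The first probe of the pair carries the T, and the second, which had the higher mean signal and describes the gene here, carries the C.
H2-Ab1, first probe: ataaacgagacTcagactctg
H2-Ab1, second probe: ataaacgagacCcagactctg

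The only Ciita probe begins with gccccatctaatgcaaaacaaaacaaaacg, and 30 of its 60 bases are a run of the unit AAAAC repeated 6 times. Further copies of the unit stand in the printed bases, before their last g, so more than 30 bases of the probe are repeat. The signals of this probe are given below with this limit. Of the 8 genes, H2-DMb2 was not well above background on any O4+ array.

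Markers of the labelled cells were checked first. All 11 oligodendrocyte markers were higher in O4+ than in CD11B+ cells of PBS pups at both ages, and 11 of 12 microglia markers were lower. All 12 microglia markers were nevertheless well above background on every O4+ array as well. In such bulk samples fewer cells of a type and less RNA per cell cannot be told apart. The share of probes well above background ran from 52.9% to 65.4% over the 48 arrays.

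2 CD11B+ arrays stood apart. In the PBS group at P10, replicate 6 had a summed signal of 7 neutrophil markers of 17.24 (log2) against 14.77 to 15.26 on the other PBS arrays and 15.76 to 16.77 with IL1B. On the same array the interferon gamma gene Ifng read 7.09 against 1.57 to 2.72, and 9 dendritic cell markers summed to 14.44 against 13.32 to 13.61. In the IL1B group at P5, replicate 3 had a summed signal of 5 neuronal markers of 15.93 against 12.98 to 13.23 on the other arrays. For some of the class II genes, group differences and correlations that include either array are also given without it. Most other values of these groups, those of the pathway list among them, are given with the array only.

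Values are normalized log2 signals of the array, and a log2 change is the difference of group means with its standard error. A fold is the ratio of group medians. A gene was called where limma's adjusted p was under 0.05 and the fold over 1.5. Signals of different probes are not compared with each other. Replicates are separate samples by their labels, each from pooled brains.

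**Figure D2:**
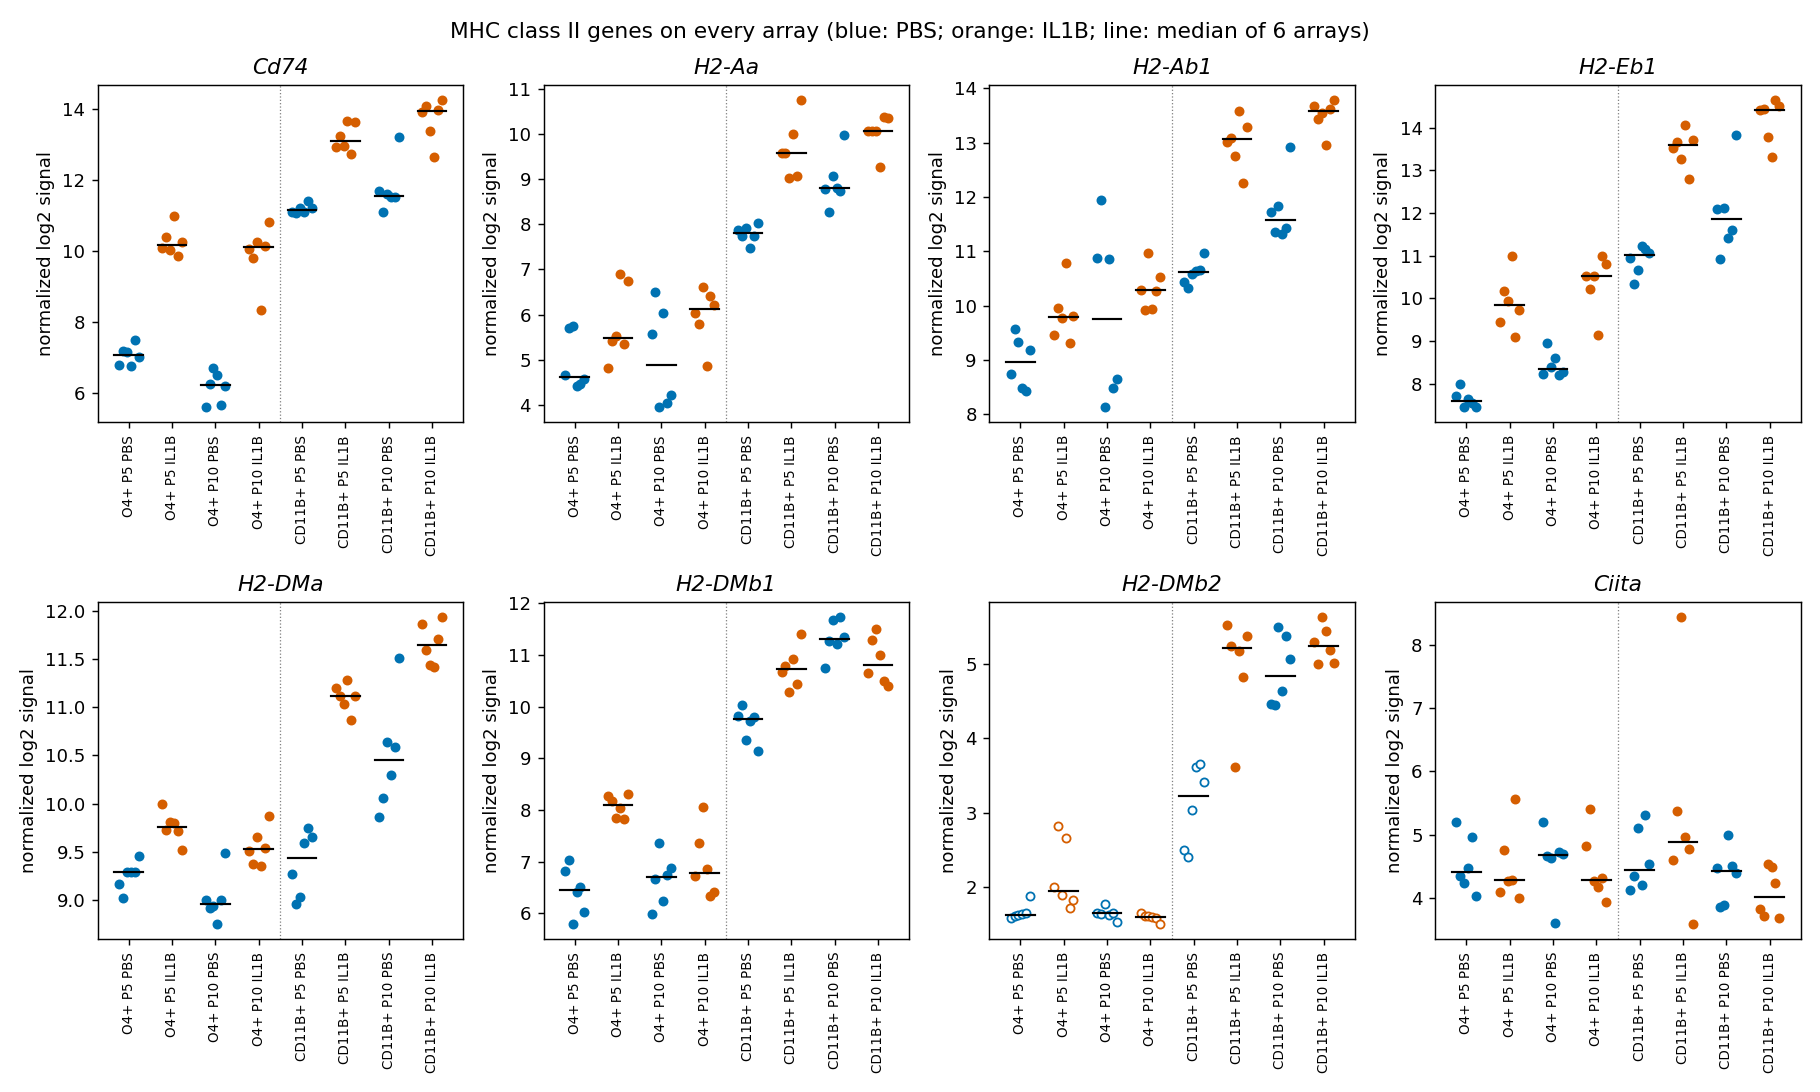
Normalized log2 signal of each of the 8 genes (y axis, a scale of its own in each panel) on the 48 arrays, by group (x axis), quantile-normalized within each cell fraction. Points are arrays, blue for PBS and orange for IL1B, and the line is the median of 6 arrays. Symbols are open for groups in which all 6 arrays lacked a signal well above background. In every other group all symbols are filled, dim arrays included. For H2-Aa in O4+ cells of PBS pups at P10, 3 of the 6 filled arrays were well above background. For Ciita in CD11B+ cells of IL1B pups at P10, 2 of 6 were. The dotted line separates the fractions, whose values were not normalized together here. Cd74 and H2-Eb1 of O4+ cells do not overlap between PBS and IL1B at either age, H2-DMb2 is open on all O4+ arrays, and Ciita overlaps throughout.

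In O4+ cells at P5, Cd74, H2-Eb1, H2-DMb1 and H2-Ab1 rose with IL1B. These were 4 of the 8 genes, and 0 fell, where 3.43% of all probes were called higher and 1.49% lower. The groups of 4 genes did not overlap, as for 4.63% of all probes in that direction. The median log2 change was 0.88 over the 8 genes and -0.04 over all probes tested.

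Cd74 had the widest separation. Its signal ran from 6.76 over a median of 7.08 to 7.48 in PBS pups and from 9.85 over 10.17 to 10.98 in IL1B pups, so the groups lay more than 2 log2 units apart at their nearest arrays. The log2 change was 3.21 ± 0.19 (SE, n = 6 and 6), an 8.53-fold rise (limma, adjusted p = 1.5e-06). H2-Eb1 ran from 7.45 over 7.59 to 7.99 and from 9.09 over 9.83 to 11.00, again without overlap. It rose 4.74-fold, with a log2 change of 2.26 ± 0.27 (limma, adjusted p = 0.00018).

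H2-DMb1, the beta chain of the peptide exchanger, ran from 5.80 over 6.46 to 7.03 and from 7.82 over 8.10 to 8.31, also without overlap. It rose 3.12-fold (log2 change 1.64 ± 0.20, limma, adjusted p = 0.00021). Its partner chain H2-DMa differed less between the groups, by 0.51 ± 0.09 (adjusted p = 0.002). The groups of H2-DMa did not overlap, from 9.02 to 9.45 and from 9.52 to 10.00, but its 1.39-fold difference was under the fold threshold.

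The I-A chains were less clear. H2-Ab1 ran from 8.43 over 8.96 to 9.57 in PBS pups and from 9.31 over 9.78 to 10.78 in IL1B pups, with overlap, and was called at 1.77-fold (log2 change 0.89 ± 0.27, limma, adjusted p = 0.04). Its first probe was not called (log2 change 0.79 ± 0.29, adjusted p = 0.09), and the call of the second was lost once slide entered the fit (adjusted p = 0.37). H2-Aa overlapped widely, from 4.42 to 5.74 and from 4.82 to 6.90, with a log2 change of 0.87 ± 0.40 (adjusted p = 0.17). For H2-DMb2 no fold is given, since no array was above background. Ciita overlapped almost fully, with a log2 change of -0.05 ± 0.28 (adjusted p = 0.93).

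On the slides that held both groups the differences of Cd74 were 3.35 and 3.00, those of H2-Eb1 2.44 and 1.99, and those of H2-DMb1 1.48 and 2.37. On those slides H2-Ab1 differed by 1.15 and 0.20 and H2-Aa by 0.61 and -0.33. Each slide held 1 IL1B array, with 4 and 2 PBS arrays.

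Other cell markers moved with this comparison. The 12 microglia markers were called higher in 8 cases and lower in 0, with a median log2 change of 0.95, and their summed signal ran from 18.09 to 18.42 with PBS and from 18.88 to 19.19 with IL1B. All 7 neutrophil markers were called higher, with a median log2 change of 5.06 and a summed signal of 6.97 to 8.33 and then 10.45 to 15.03. Of 9 dendritic cell markers 3 were called higher (summed signal 9.46 to 10.13, then 10.63 to 11.74), while Xcr1, Clec9a and Cd209a were above background on no array of either group. Of 6 B cell markers 2 were called higher (8.18 to 8.79, then 9.28 to 10.00), with Pax5 above background on no array of either group. Of 7 markers of border-associated macrophages 3 were called higher (13.32 to 14.29, then 13.74 to 14.88), of 4 monocyte markers 2 (14.55 to 14.68, then 14.71 to 14.86) and of 4 T cell markers 1 (9.53 to 9.77, then 9.58 to 9.76). The part of these cells in the class II signal of the O4+ fraction was not tested.

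In CD11B+ cells at P5, 7 of the 8 genes rose with IL1B and 0 fell, where 4.06% of all probes were called higher and 5.24% lower. The groups of 6 genes did not overlap, as for 5.87% of all probes in that direction. The median log2 change was 1.86 over the 8 genes (1.80 with H2-DMb2 at its lower limit) and -0.01 over all probes.

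The beta chain genes H2-Eb1 and H2-Ab1 had the largest log2 changes of the 8. H2-Eb1 ran from 10.34 over 11.01 to 11.22 with PBS and from 12.80 over 13.59 to 14.06 with IL1B, a 6-fold rise (log2 change 2.60 ± 0.21, limma, adjusted p = 6.4e-06). H2-Ab1 ran from 10.32 over 10.61 to 10.97 and from 12.26 over 13.06 to 13.59, a 5.46-fold rise (2.40 ± 0.20, adjusted p = 7.3e-06), and its first probe gave 5.1-fold. H2-Aa ran from 7.47 over 7.81 to 8.03 and from 9.03 over 9.57 to 10.74, a 3.39-fold rise (1.87 ± 0.26, adjusted p = 0.00032). None of the 3 overlapped between the groups.

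Cd74 ran from 11.08 over 11.17 to 11.42 and from 12.74 over 13.11 to 13.68 and rose 3.83-fold (2.01 ± 0.16, limma, adjusted p = 5.5e-06). H2-DMa ran from 8.96 over 9.43 to 9.75 and from 10.87 over 11.12 to 11.28 and rose 3.22-fold (1.73 ± 0.14, adjusted p = 7.7e-06). H2-DMb1 ran from 9.14 over 9.76 to 10.02 and from 10.28 over 10.73 to 11.41 and rose 1.96-fold (1.11 ± 0.20, adjusted p = 0.0019). In all 3 the lowest IL1B array was above the highest PBS array.

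H2-DMb2, the second beta chain, was well above background on none of the PBS arrays and on all IL1B arrays. Its signals ran from 2.41 to 3.66 and from 3.62 to 5.52, and IL1B pups had at least 2.47-fold more (adjusted p = 0.0022), a lower limit set against the dimmest probes that were above background. Ciita ran from 4.12 over 4.44 to 5.31 and from 3.59 over 4.88 to 8.44 and was not called (log2 change 0.69 ± 0.67, adjusted p = 0.54). Its highest value belonged to replicate 3 with IL1B, the array with the high neuronal markers, and without that array the log2 change was 0.06. Without it the same 7 genes were called.

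The 1 slide that held both groups, with 4 IL1B arrays and 1 PBS array, gave differences of 2.11 for Cd74, 2.49 for H2-Eb1, 2.09 for H2-Ab1, 1.81 for H2-Aa, 1.44 for H2-DMa and 1.75 for H2-DMb1. With slide as a block, H2-Aa (adjusted p = 0.085) and H2-DMb2 (adjusted p = 0.19) were no longer called. All 7 neutrophil markers were called higher here too, with a median log2 change of 4.22 and a summed signal of 14.70 to 15.89 and then 18.30 to 18.90. Of the microglia markers 0 were higher and 3 lower, and their summed signal ran from 20.06 to 20.15 with PBS and had its lowest value at 19.94 and its median at 19.96 with IL1B. Of the dendritic cell markers 3 were higher and 1 lower (13.83 to 14.15, then 14.02 to 14.78), with Xcr1 and Clec9a above background on no array of either group. Of 4 monocyte markers 2 were higher (14.89 to 15.57, then 15.55 to 16.20), of 4 T cell markers 2 (9.95 to 10.44, then 10.54 to 11.65), and of the border-associated macrophage and B cell markers 0 were. The part of these cells was not tested.

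The response to IL1B at P5 differed between the fractions for 3 genes with measured responses, in both directions, and the test also called H2-DMb2. With all 48 arrays normalized together, Cd74 rose more in O4+ cells, by 3.32 against 1.93 on the log2 scale, a difference of 1.39 ± 0.26 (limma interaction, adjusted p = 0.00067). H2-DMa rose less in O4+ cells, by 0.54 against 1.62 (-1.09 ± 0.17, adjusted p = 1e-04). H2-Ab1 also rose less, by 0.94 against 2.29 (-1.35 ± 0.35, adjusted p = 0.013), and its first probe gave -1.39. For H2-DMb2 no size is given, since of the 4 groups it was above background only in CD11B+ cells of IL1B pups.

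The difference was not called for H2-Eb1 (-0.15 ± 0.36, adjusted p = 0.85), H2-DMb1 (0.63 ± 0.28, adjusted p = 0.19), H2-Aa (-0.93 ± 0.48, adjusted p = 0.27) and Ciita (-0.73 ± 0.74, adjusted p = 0.63). Without CD11B+ IL1B replicate 3 the difference of Ciita was -0.11. Over all probes 6.91% were called more positive and 3.79% more negative in O4+ cells. Once slide entered the fit as a block, 0 of the 8 were called, at a log2 difference of 1.24 for Cd74 (adjusted p = 0.15) and -0.78 for H2-DMa (adjusted p = 0.063).

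**Figure D3:**
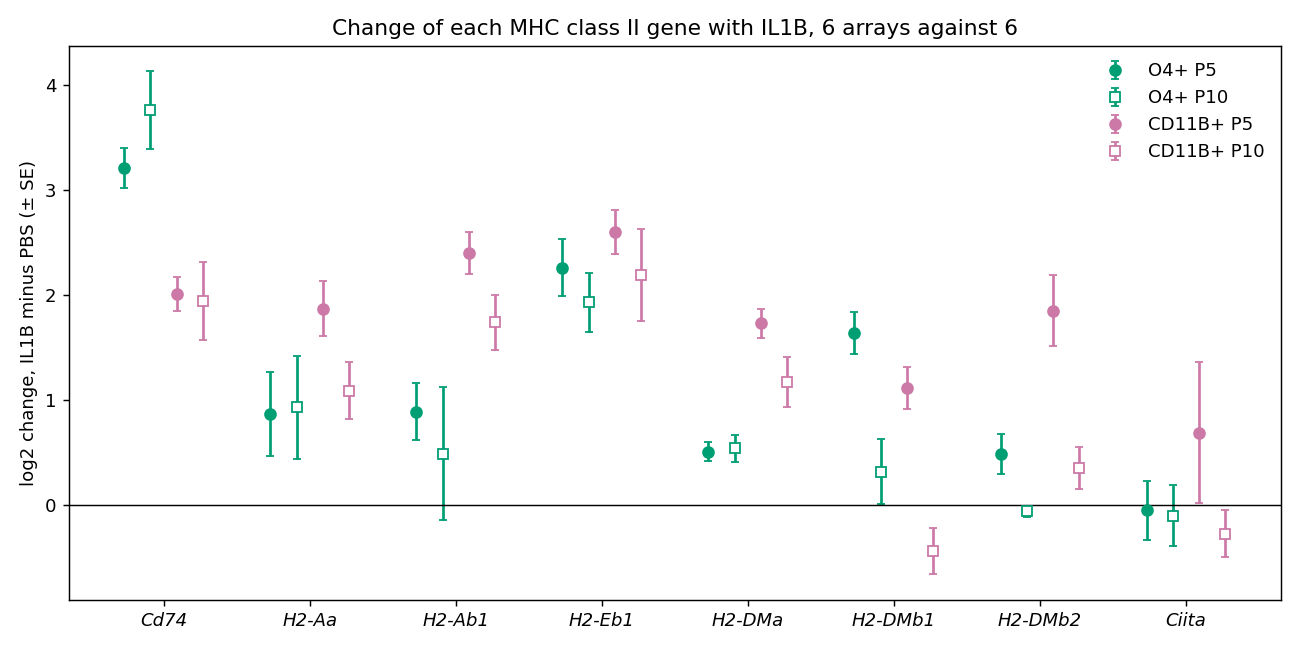
Log2 change of each of the 8 genes with IL1B (y axis, mean of 6 IL1B arrays minus mean of 6 PBS arrays, bars ± SE), by fraction (green for O4+, pink for CD11B+) and age (filled circles for P5, open squares for P10). At P5 Cd74 is higher in O4+ cells (3.21) than in CD11B+ cells (2.01), while H2-Ab1 and H2-DMa are higher in CD11B+ cells; the P10 values belong to the comparisons that led to the choice of genes.

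At P10, 5 days after the last injection, 2 of the 8 genes met the call rule in O4+ cells, Cd74 and H2-Eb1, beside 2.49% of all probes called higher and 1.42% lower. This comparison led to the choice of the genes, so the count is no evidence about them and no p is given. Cd74 ran from 5.60 over 6.22 to 6.69 in PBS pups and from 8.33 over 10.11 to 10.81 in IL1B pups (log2 change 3.76 ± 0.37, 14.9-fold). H2-Eb1 ran from 8.20 over 8.33 to 8.95 and from 9.15 over 10.52 to 10.98 (1.93 ± 0.28, 4.58-fold). The lowest IL1B array of both was replicate 4, and neither gene overlapped between the groups, as for 2.88% of all probes in that direction.

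H2-DMb1, which had separated at P5, overlapped at P10, from 5.99 over 6.71 to 7.36 with PBS and from 6.33 over 6.79 to 8.06 with IL1B (1.06-fold). H2-DMa ran from 8.75 to 9.49 and from 9.35 to 9.87 (1.48-fold), with replicate 6 as the highest PBS array.

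H2-Ab1 and H2-Aa were uneven among the P10 PBS arrays of O4+ cells. H2-Ab1 read 10.87, 11.95 and 10.86 in replicates 1, 2 and 4, each above at least 5 of the 6 IL1B arrays (9.91 to 10.96), and 8.13, 8.48 and 8.65 in replicates 3, 5 and 6. Its first probe gave the same order, 11.06, 12.15 and 11.10 against 7.96, 8.29 and 8.48. H2-Aa read 5.57, 6.51 and 6.03 in replicates 1, 2 and 4 and 3.96, 4.06 and 4.22 in replicates 3, 5 and 6, and was above background on 3 of the 6 arrays. Cd74 read 5.60, 6.25 and 6.51 in replicates 1, 2 and 4 and 6.69, 5.65 and 6.19 in the others, so it did not follow that order. Replicates 1 to 5 shared 1 slide. The log2 changes with IL1B were 0.49 ± 0.63 for H2-Ab1 and 0.93 ± 0.49 for H2-Aa.

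**Figure D4:**
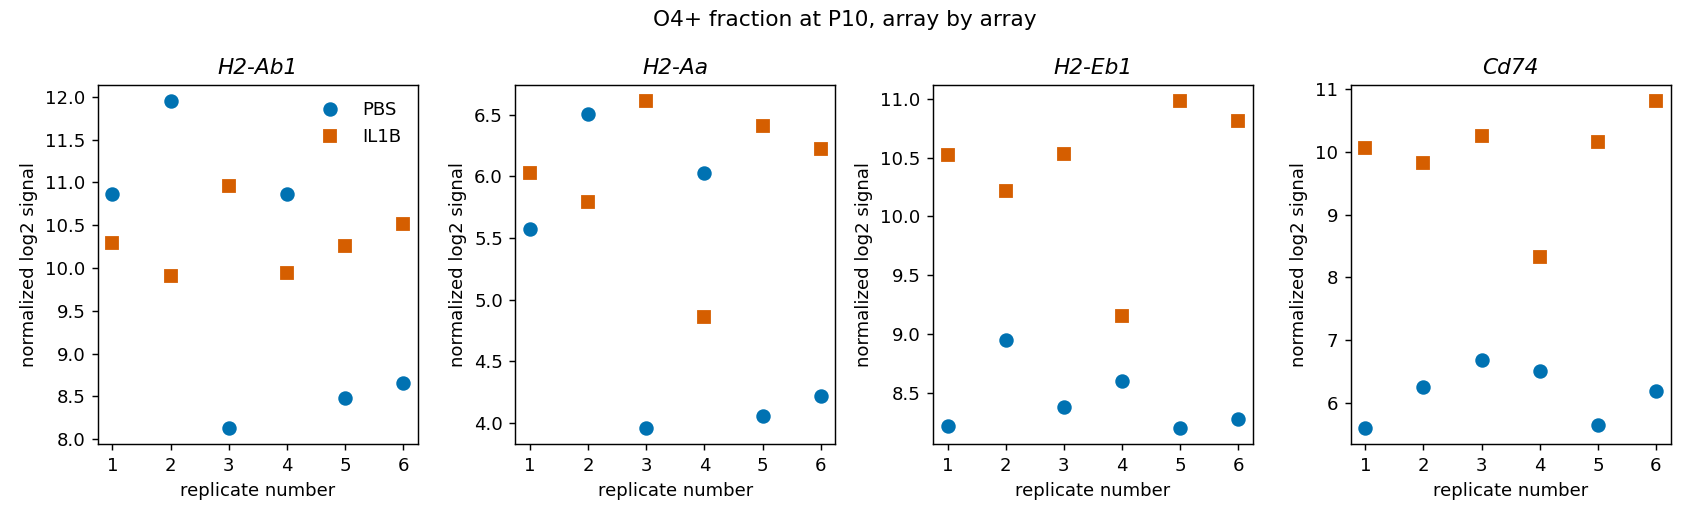
Normalized log2 signal (y axis) of H2-Ab1, H2-Aa, H2-Eb1 and Cd74 in O4+ cells at P10, by replicate number (x axis), with circles for PBS and squares for IL1B. The PBS arrays of H2-Ab1 and H2-Aa lie in 2 sets of 3 (replicates 1, 2 and 4 above replicates 3, 5 and 6), whereas those of H2-Eb1 and Cd74 all lie below the IL1B arrays; numbers are names and do not pair the samples.

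In the O4+ P10 arrays on slides with both groups, Cd74 differed by 3.8 and 4.62 and H2-Eb1 by 1.90 and 2.53, while H2-Ab1 differed by 0.04 and 1.87. Of the microglia markers 5 of 12 met the call rule (summed signal 17.43 to 17.95 with PBS and 17.65 to 18.14 with IL1B). Of the neutrophil markers 6 of 7 did (6.60 to 7.96, then 8.64 to 10.47), and of the dendritic cell markers 3 of 9 (8.50 to 9.09, then 9.54 to 10.39). So did 2 of 4 monocyte markers (13.71 to 14.03, then 13.93 to 14.47) and 3 of 6 astrocyte markers (12.38 to 12.91, then 13.01 to 13.55). Of the border-associated macrophage, B cell and T cell markers 0 did. The part of these cells in the class II signal was not tested.

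In CD11B+ cells at P10, 5 of the 8 genes met the call rule, beside 1.09% of all probes called higher and 1.08% lower, and here too the count is no evidence about the genes. These were H2-Eb1 (5.96-fold), Cd74 (5.23-fold), H2-Ab1 (4.01-fold), H2-Aa (2.4-fold) and H2-DMa (2.3-fold). H2-Ab1 ran from 11.31 over 11.58 to 12.92 with PBS and from 12.95 over 13.58 to 13.78 with IL1B, and it was the only gene of the 8 whose groups did not overlap, beside 2.03% of all probes in that direction.

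The overlap of the other 4 came from PBS replicate 6, the array described above. Cd74 read 13.23 there and 11.11 to 11.69 on the other PBS arrays, against 12.65 to 14.26 with IL1B, and H2-Eb1 read 13.82 there and 10.91 to 12.11 on the others, against 13.32 to 14.64. H2-Aa read 9.97 and H2-DMa 11.51 on that array, against at most 9.06 and 10.64 on the other PBS arrays. H2-DMb1 did not stand out on it, at 11.34 within a range of 10.75 to 11.73. Without this array the log2 changes grew from 1.94 to 2.23 for Cd74, from 2.19 to 2.55 for H2-Eb1 and from 1.74 to 1.97 for H2-Ab1.

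H2-DMb1 was lower with IL1B at P10, from 10.40 over 10.81 to 11.49 against 10.75 over 11.31 to 11.73, with overlap (log2 change -0.44 ± 0.22). H2-DMb2 differed by 0.35 ± 0.20 and Ciita by -0.27 ± 0.22. With slide as a block 0 of the 8 genes met the call rule. Within the slide that held both groups, with 5 IL1B arrays and PBS replicates 5 and 6, Cd74 differed by 1.23, H2-Eb1 by 1.40, H2-Ab1 by 1.27, H2-Aa by 0.61 and H2-DMa by 0.56, and replicate 6 is 1 of the 2 PBS arrays behind those values. Of the dendritic cell markers 5 of 9 met the call rule (13.32 to 14.44, then 14.13 to 14.67), and of the neutrophil and microglia markers 0 did. The log2 changes of the 7 neutrophil markers still ran from 0.98 to 1.59. Their summed signal was 17.24 on PBS replicate 6 and 14.77 to 15.26 on the other PBS arrays, against 15.76 to 16.77 with IL1B. The dendritic cell value of 14.44 also belonged to that replicate, with 13.32 to 13.61 on the other PBS arrays. Among 4 T cell markers 1 met the call rule (9.97 to 10.69, then 10.42 to 10.71), and the value of 10.69 belonged to PBS replicate 6. Among 6 astrocyte markers 1 met it, and of the monocyte, B cell and border-associated macrophage markers 0 did. The part of these cells was not tested.

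Set side by side, the log2 change of H2-DMb1 was lower at P10 than at P5 by 1.33 in O4+ cells and by 1.55 in CD11B+ cells. That of Cd74 was 0.55 higher at P10 in O4+ cells and 0.07 lower in CD11B+ cells. That of H2-Eb1 was lower by 0.33 and 0.42. Without CD11B+ PBS replicate 6, the log2 changes in CD11B+ cells at P10 were 2.23 for Cd74 and 2.55 for H2-Eb1. Those at P5 were 2.01 and 2.60, so the change of Cd74 was then the higher one at P10. The differences between the ages involve the P10 comparisons and were not tested.

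With age, from P5 to P10 in PBS pups, 5 of the 8 genes rose in CD11B+ cells and 0 fell, where 4.66% of all probes were called higher and 3.62% lower. The groups of these 5 genes did not overlap, as for 7.66% of all probes in that direction. H2-DMb1 rose 2.93-fold, from 9.14 to 10.02 over the P5 arrays to 10.75 to 11.73 over the P10 arrays (log2 change 1.69 ± 0.19, limma, adjusted p = 9.3e-05). H2-DMa rose 2.02-fold (adjusted p = 0.0094), H2-Aa 1.99-fold (adjusted p = 0.0039), and H2-Ab1 was 1.96-fold higher. H2-DMb2 was above background on none of the P5 arrays and on all P10 arrays and was at least 2.4-fold higher (adjusted p = 0.00074).

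Cd74 (log2 change 0.59 ± 0.29, adjusted p = 0.21) and H2-Eb1 (1.10 ± 0.41, adjusted p = 0.086) were not called. Without PBS replicate 6 at P10 the same 5 genes were called and these values were 0.30 and 0.73. The P5 and P10 arrays shared no slide and no scan day, so age and scan cannot be told apart. With scan day as a random block only H2-DMb1 and H2-DMb2 stayed called, and H2-Aa (adjusted p = 0.11), H2-DMa (adjusted p = 0.2) and H2-Ab1 did not. In the same comparison 6 of 7 markers of border-associated macrophages were lower at P10 and 3 of 12 microglia markers were higher.

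In O4+ cells the age comparison called 1 gene in each direction, where 7.86% of all probes were called higher and 8.98% lower. Cd74 was lower at P10, from 6.76 to 7.48 over the P5 arrays to 5.60 to 6.69 over the P10 arrays (log2 change -0.92 ± 0.20, 1.82-fold lower), which is a description, since these P10 arrays also entered the rise by which the gene was chosen. H2-Eb1 rose, from 7.45 to 7.99 to 8.20 to 8.95 (0.81 ± 0.14, 1.67-fold, limma, adjusted p = 0.00075). Neither overlapped, as for 13% of all probes upward and 11.4% downward. With slide or scan day as a random block Cd74 was no longer called (log2 change -0.91). Beside it, 9 of the 12 microglia markers were called lower at P10 in O4+ cells, and their part was not tested.

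The other members did not pass the test in O4+ cells with age. H2-Ab1 differed by 0.87 ± 0.64 (adjusted p = 0.35), which rests on the 3 high PBS arrays at P10, and H2-Aa by 0.13 ± 0.49 (adjusted p = 0.87). H2-DMa, H2-DMb1 and Ciita lay between -0.24 and 0.21, and H2-DMb2 was above background on no array.

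Between the fractions, in PBS pups, most of the class II genes were lower in O4+ than in CD11B+ cells. On the scale of all 48 arrays, 6 of the 8 were called lower at P5 and 7 at P10, where 21.8% and 20.2% of all probes were called lower (19.8% and 22.2% higher). The groups of 6 genes did not overlap at either age, as for 21.8% and 21.7% of all probes in that direction. Cd74 ran from 6.50 to 7.22 in O4+ cells and from 11.16 to 11.48 in CD11B+ cells at P5, 21.5-fold lower (limma, adjusted p = 2.6e-11), and from 5.34 to 6.42 and 11.18 to 13.21 at P10, 50.9-fold lower. H2-DMb1 was 13.2-fold lower at P5 (adjusted p = 1.9e-08) and 30.6-fold lower at P10 (adjusted p = 1.8e-09). H2-Eb1 was 13.5-fold and 14-fold lower and H2-Aa 12.8-fold and 20.6-fold lower, all with adjusted p values of 5.4e-06 or less.

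H2-Ab1 and H2-DMa stood closer in the fractions. H2-Ab1 was 3.93-fold lower in O4+ cells at P5 (adjusted p = 3.8e-06) and 4.14-fold lower at P10, where the 3 high O4+ arrays made the groups overlap. Its call at P10 was lost with slide as a random block and with the replicate block, which left 6 genes called. H2-DMa was 1.45-fold lower at P5, under the fold threshold (adjusted p = 0.007), and 3.53-fold lower at P10 (adjusted p = 2.7e-05). H2-DMb2 was at least 2.48-fold lower in O4+ cells at P10 (adjusted p = 7e-09), and at P5 it was called but above background in neither fraction. Ciita was not called at P5 (adjusted p = 0.099) or P10 (adjusted p = 0.47). Without CD11B+ PBS replicate 6 the same 7 genes were called at P10, with Cd74 49.6-fold lower.

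The difference between the fractions was set beside that of 12 microglia markers. In PBS pups at P5 the markers were lower in O4+ cells by a median of 3.00 log2 units, with values from -3.28 to 0.39, and Cd74 by 4.46. In IL1B pups at P5 the markers differed by a median of -1.57, with values from -2.14 to 0.47, and Cd74 by -3.07. H2-Eb1 differed by -3.61 with PBS and -3.76 with IL1B, H2-DMb1 by -3.64 and -3.02, H2-DMa by -0.52 and -1.60, and H2-Ab1 by -1.97 and -3.33. At P10 the marker median was -4.61 with PBS and -3.93 with IL1B, and Cd74 differed by -5.94 and -3.96. With IL1B at P10 H2-DMa differed by -2.36 and H2-Ab1 by -3.32. Both thus differed less between the fractions than the marker median did with PBS at both ages and with IL1B at P10, but not with IL1B at P5, as values without a test.

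O4+ and CD11B+ samples of the same number in a group were set against each other, since the study's methods say that both fractions came from the same animals, although the labels do not say that a number marks the same animals. After each group mean was subtracted, H2-DMb1 correlated over the 24 pairs with r = 0.85 and rho = 0.86, and with r from 0.77 to 0.96 in the 4 conditions. H2-DMa gave r = 0.65 (0.30 to 0.78) and Cd74 r = 0.52 (-0.02 to 0.85). H2-Eb1 (r = 0.24), H2-Aa (0.15), H2-DMb2 (0.28), Ciita (-0.12) and H2-Ab1 (-0.17) were lower. Without both CD11B+ arrays that stood apart and their O4+ partners, a choice made after seeing the data, r over 22 pairs was 0.86 for H2-DMb1, 0.41 for H2-DMa, 0.70 for Cd74, 0.43 for H2-Eb1, 0.34 for H2-Aa and 0.07 for H2-Ab1. The pairs may share animals and dissociation, and these correlations are a description.

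**Figure D5:**
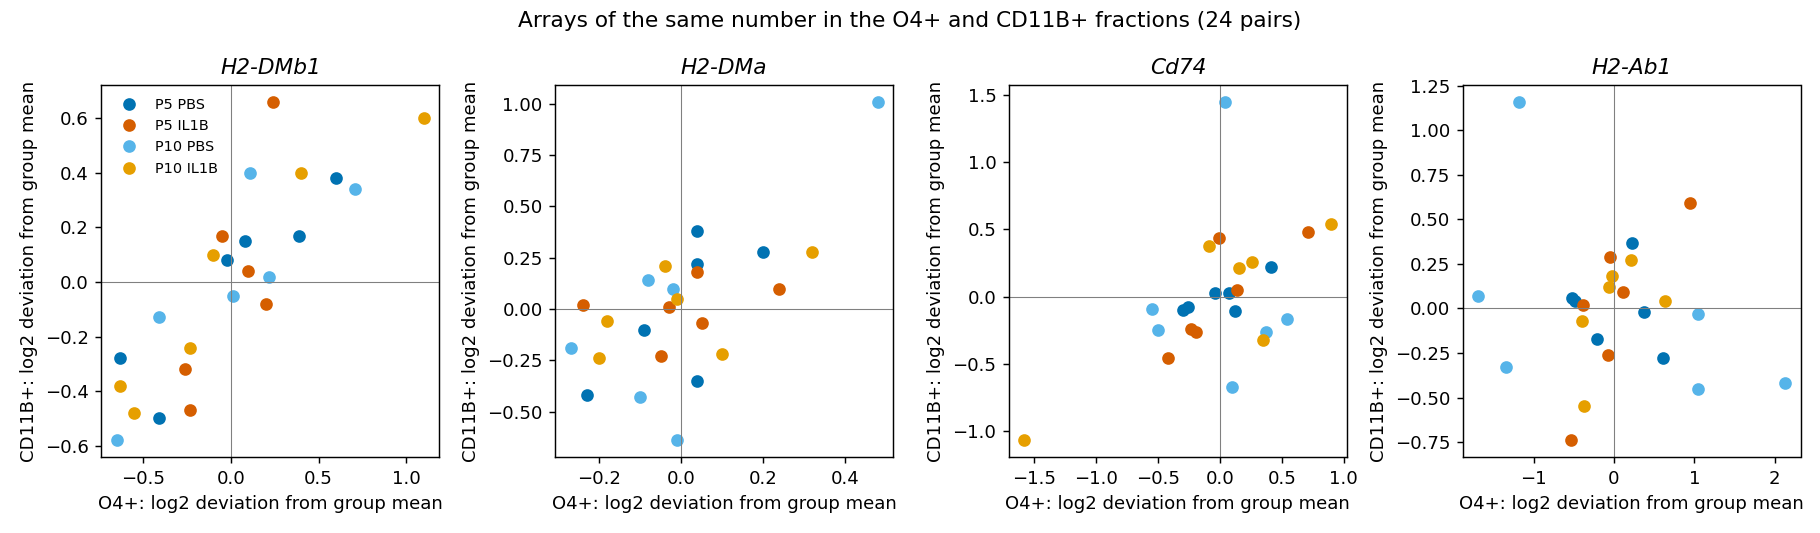
Deviation of each array from its group mean in log2 units, O4+ (x axis) against CD11B+ (y axis), for arrays of the same number and condition, in H2-DMb1, H2-DMa, Cd74 and H2-Ab1. Each point is 1 of 24 pairs, coloured by condition. H2-DMb1 (r = 0.85) follows a line, and H2-Ab1 (r = -0.17) does not.

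Within a fraction the genes did not vary as 1 set. Over the 24 CD11B+ arrays, after subtraction of group means, Cd74 correlated with H2-Eb1 at 0.91, with H2-Ab1 at 0.87, with H2-Aa at 0.85 and with H2-DMa at 0.71, but with H2-DMb1 at 0.00, H2-DMb2 at 0.11 and Ciita at -0.18. Over the 24 O4+ arrays Cd74 correlated with H2-Eb1 at 0.78, with H2-Aa at 0.43 and with H2-Ab1 at 0.19, while H2-Ab1 and H2-Aa correlated with each other at 0.85. Over 22 CD11B+ arrays, without both that stood apart, Cd74 correlated with H2-Eb1 at 0.82, with H2-Aa at 0.79, with H2-Ab1 at 0.75, with H2-DMa at 0.44 and with H2-DMb1 at -0.05. The 3 high O4+ arrays enter the O4+ values.

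The 5 genes outside the 8 whose deviations from the group means were most like those of Cd74, by the mean of the r values in both fractions among 24540 probes above background on all arrays, were Sp140 (0.77), the complement gene C3 (0.76), the immunoproteasome subunit Psmb8 (0.76) and the MHC class I genes H2-Q5 (0.75) and H2-Q10 (0.73). Without the 2 arrays that stood apart their r in CD11B+ cells was 0.60, 0.52, 0.74, 0.81 and 0.84, in the same order. The class I genes of this family are near copies of each other, so their probes may read more than 1 of them. With IL1B at P5, C3 rose 5.92-fold in O4+ cells and 6.25-fold in CD11B+ cells, and Psmb8 2.9-fold and 1.59-fold.

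Of a list of 37 other genes of the class II pathway, 35 had a probe. With IL1B at P5, 16 of the 35 were called higher and 0 lower in O4+ cells (median log2 change 0.52), and 8 higher and 0 lower in CD11B+ cells (median 0.28). Of all probes 3.43% were called higher and 1.49% lower in O4+ cells (median -0.04). In CD11B+ cells these shares were 4.06% and 5.24% (median -0.01). The list was chosen with earlier results of these arrays known.

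Genes of antigen processing and of T cell contact led in O4+ cells at P5. The costimulatory ligand gene Icosl rose 5.88-fold (adjusted p = 4.9e-07), the inhibitory ligand gene Cd274, which encodes PD-L1, 4.12-fold (adjusted p = 1.5e-05) and Ctss, the cathepsin that trims the invariant chain, 3.61-fold (adjusted p = 1.5e-06). H2-Ob (3.48-fold) and H2-Oa (2.91-fold), the chains of the H2-DM inhibitor H2-O, rose as well. Of the transcription factors, Irf8 rose 2.29-fold and Irf1 1.59-fold. Rfx5, Rfxap and Rfxank were not called, with log2 changes from -0.28 to -0.06.

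In CD11B+ cells at P5 the largest rise of the list was that of Ifng, which encodes interferon gamma. Its signal ran from 2.68 over 3.54 to 4.49 with PBS, above background on 3 of 6 arrays, and from 7.10 over 7.51 to 8.44 with IL1B (log2 change 4.02 ± 0.36, 15.7-fold, limma, adjusted p = 1.2e-05). H2-Ea-ps, a pseudogene of the I-E alpha chain, rose 5.04-fold (adjusted p = 0.015), Cd274 3.32-fold and Cd40, a costimulatory receptor gene, 2.93-fold. With PBS, H2-Ea-ps too was above background on 3 of 6 arrays. H2-Oa rose 1.54-fold (adjusted p = 0.00055). Of 4 T cell markers 2 were also called higher, with a summed signal of 9.95 to 10.44 and then 10.54 to 11.65. In O4+ cells Ifng was above background on 2 of 6 IL1B arrays and 0 of 6 PBS arrays, and no size is given.

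At P10, in the comparisons for which no p is given, 7 genes of the list met the call rule upward and 1 downward in O4+ cells, and 3 and 1 in CD11B+ cells. Of all probes 2.49% met it upward and 1.42% downward in O4+ cells, and 1.09% and 1.08% in CD11B+ cells. Ifng of CD11B+ cells read 6.36 to 7.36 with IL1B, against 1.57 to 2.72 on 5 PBS arrays and 7.09 on PBS replicate 6. Cd274 was 3.56-fold higher in O4+ and 2.64-fold higher in CD11B+ cells and Irf1 1.78-fold and 1.51-fold higher. In O4+ cells of PBS pups Cd274 was above background on 2 of 6 arrays. March1, the ubiquitin ligase that removes class II from the surface, was 1.69-fold lower in each fraction. In O4+ cells H2-Ob (at least 1.95-fold), Cd83 (2.43-fold), which opposes March1, and Ctss (2.06-fold) were also higher.

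With age in PBS pups, 13 genes of the list were called lower and 4 higher in O4+ cells, and 4 lower and 5 higher in CD11B+ cells. Of all probes 8.98% were called lower and 7.86% higher in O4+ cells, and 3.62% and 4.66% in CD11B+ cells. In O4+ cells Cd83 was 5.33-fold lower at P10, Cd274 4.31-fold, Irf8 3.29-fold, Irf1 2.67-fold and H2-Ob at least 1.8-fold, while Rfxank rose 1.99-fold. Cd274 was above background on 2 of the 6 arrays at P10. H2-Eb2, another beta chain gene, was above background on at most 2 of the 6 arrays in each O4+ group. In CD11B+ cells H2-Ea-ps rose 4.6-fold, H2-Oa 2.04-fold and Rfx5 1.58-fold, while Cd274 was 2.14-fold and Cd40 1.98-fold lower. At P5 H2-Ea-ps was above background on 3 and Rfx5 on 4 of the 6 arrays. Between the fractions 25 of the 35 genes were called lower in O4+ cells at P5 and 26 at P10, where 21.8% and 20.2% of all probes were. These genes included H2-Oa (15.3-fold and 44-fold), the costimulatory ligand gene Cd86 (14.7-fold and 45.4-fold) and Irf8 (9.69-fold and 39.5-fold). At each age 3 genes of the list were called higher in O4+ cells, where 19.8% and 22.2% of all probes were. These were March1, March8 and the transcription factor gene Rfxap, which was 2.08-fold and 1.88-fold higher.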

How the data were processed

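Total RNA of 48 samples was labelled with Cy3 and hybridised by the authors to Agilent 8x60K arrays, each array taking 1 sample. The deposited scanner files (Agilent Feature Extraction 10.7.3.1) hold the intensity of each spot with the background subtracted by the software, and probe positions in mm9. The deposited matrix gives the same signals as a ratio to the median of each array. Log2 intensities were quantile-normalized here within each cell fraction, or over all 48 arrays for comparisons of fractions. After that, 278 non-uniform spots were left out and replicate spots of each probe were averaged. Saturation was seen on no spot. Comparisons used limma 3.58.1 under R 4.3.3, with Benjamini-Hochberg adjustment over 55681 probes. All 8 members are named, with the up to 4 most changed called genes of the pathway list per comparison, its other class II chains and transcription factors. The members and lists were chosen with earlier results of these data known. Array number limits the precision. Replicate numbers were not taken as pairs. Alternatives covered scaling, background, dim probes, slide, scan day, the methods' t-test, the replicate block and each array left out. The steps were tested on simulated data. Coordinates of Cd74 and 1 gene of the pathway list are not reported here.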

Additional observations from a re-analysis of the deposited data

Results flagged for a closer look

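Of 72 groups of 6 arrays checked for a lone high or low value (9 probes in 8 groups), 8 held one, and chance gives about 1 in 20. In CD11B+ cells of PBS pups at P10, replicate 6 was far above the other arrays for Cd74 (13.23, nearest 11.69) and H2-Ab1 (12.92, nearest 11.84), the array on which Ifng and neutrophil markers also stood apart. In O4+ cells of PBS pups at P10, H2-DMa was highest in replicate 6 (9.49, nearest 9) and Ciita lowest in replicate 4 (3.60, nearest 4.63). In CD11B+ cells of IL1B pups at P5, replicate 3 was highest for Ciita (8.44, nearest 5.37) and lowest for H2-DMb2 (3.62, nearest 4.82), and it was the array with high neuronal markers. H2-Aa was lowest in replicate 4 of the CD11B+ IL1B group at P10 (9.27, nearest 10.06). H2-DMb2 was highest in replicate 6 of the O4+ PBS group at P5 (1.88, nearest 1.65), below background on all 6 arrays.

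The response to IL1B at P5 differed between O4+ and CD11B+ cells by limma's interaction term for Cd74 (1.39 on the log2 scale, adjusted p = 0.00067), H2-DMa (-1.09, adjusted p = 1e-04), both probes of H2-Ab1 (-1.35, adjusted p = 0.013, and -1.39, adjusted p = 0.018) and H2-DMb2. The value of H2-DMb2 (-1.49) is no measured size, since it was above background in 1 of the 4 groups only.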

How the results depend on the processing

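Of 1671 alternative values of single genes, 1606 counted as the same. For the comparisons of IL1B with PBS at P10, this means a value within the pooled standard deviation of the groups from the main one. Calls lost there, and changed signs of uncalled genes, are not counted by this rule. For the other comparisons it means the same direction and the same side of the threshold. Slide as a block brought the number of genes called from 5 to 0 in CD11B+ cells with IL1B at P10, where it left 0 probes higher and 2 lower in all, and from 4 to 0 for the response difference. In O4+ cells with age, normexp background correction gave 0 and slide or scan day as a random block 1, from 2, and in CD11B+ cells with age scan day as a random block gave 2, from 5. The cause was not tested. The methods' t-test after adjustment called 3, 2, 7, 4, 2, 5, 6, 7 and 4 genes in the order in which the replicate block is given below.

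Counts over all probes moved more. In O4+ cells at P5 they were 1912 higher and 829 lower, against 1116 and 256 with normexp, 1829 and 1300 with the deposited matrix, 1415 and 393 with slide as a block and 3754 and 6437 with no fold threshold. At P10 they were 1388 and 788, against 607 and 371, 1684 and 1568, 917 and 641, and 3012 and 3025, with 1537 and 2059 under 75th percentile scaling. In CD11B+ cells at P5 they were 2258 and 2918, against 1419 and 1209 with normexp, 1308 and 976 with slide as a block and 4495 and 7516 with no fold threshold. At P10 they were 608 and 603, against 713 and 387 with the deposited matrix, 1844 and 1781 with no fold threshold, 389 and 385 with scan day as a block and 349 and 439 with the replicate block. With age, normexp gave 2248 and 2539 in O4+ cells, from 4374 and 5001, and 1155 and 960 in CD11B+ cells, from 2594 and 2013. No fold threshold gave 9684 and 9261, and 6697 and 5154, and scan day as a random block gave 1376 and 894 in CD11B+ cells. Between the fractions at P5 normexp gave 7446 and 7624, from 11029 and 12141, and the response difference went from 3849 and 2113 to 2371 and 1024 with the deposited matrix and 1447 and 797 with slide as a block. H2-DMb2 in CD11B+ cells lost its calls with IL1B at P5 and with age under normexp.

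Leaving out 1 array at a time gave 3 to 4 called genes in O4+ cells at P5, 2 to 3 at P10, 7 to 7 in CD11B+ cells at P5 and 2 to 5 at P10, where the count was 2 without PBS replicate 2 or IL1B replicate 5 and 3 without PBS replicate 3. It gave 2 to 2 and 5 to 6 with age in O4+ and CD11B+ cells, 6 to 7 and 7 to 7 between the fractions at P5 and P10, and 4 to 4 for the response difference. H2-Ab1 in O4+ cells at P5 lost its call in 8 of these 12 fits.

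With the replicate number as a block, the counts were 3 and 2 in O4+ cells at P5 and P10, 7 and 4 in CD11B+ cells, 2 and 5 with age, 6 and 6 between the fractions and 4 for the response difference. The replicate block lost the calls of H2-Ab1 in O4+ cells at P5 (adjusted p = 0.073) and between the fractions at P10. Same-numbered samples of the 2 fractions correlated from -0.06 to 0.72 over 24540 probes, over 0.1 in 18 of 24 pairs, and in 17 of 24 a sample correlated best with its own number in the other fraction.

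Uncalled values near 0 changed sign. Ciita with IL1B in O4+ cells at P5 gave 0.06 with 75th percentile scaling and 0.20 with scan day as a block, and -0.26 to 0.08 with 1 array left out. With age in O4+ cells, H2-DMb2 gave 0.27 with that scaling, 0.28 with the deposited matrix, 0.01 with normexp and -0.04 to 0.03 with 1 array left out. There H2-Aa gave -0.03 with either random block and -0.16 to 0.35, and Ciita -0.08 to 0.24. The response difference of Ciita gave 0.07 with scan day as a block, and that of H2-Eb1 -0.39 to 0.02. The median log2 change of all probes reached -0.45 with the deposited matrix between the fractions at P5, against -0.049 with the main normalization. Dim probes give limits only.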
